A study of Mus musculus with 7 samples.

Results

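The genes described here are the Notch receptors Notch1, Notch2, Notch3 and Notch4, the ligands Dll1, Dll4, Jag1 and Jag2, and the target genes Hey1 and Hes1. They were chosen by symbol and are 10 of the 49585 genes in the deposited tables; 9 of them, all but Hey1, had enough reads to be tested. RNA was sequenced from MS-1 cells, an immortalised mouse endothelial line from pancreatic islets, grown in DMEM. There were 4 LPL overexpression libraries and 3 Control libraries of genotype WT. LPL, lipoprotein lipase, frees fatty acids from the triglycerides of blood lipoproteins, and the comparison asks how its overexpression alters the endothelial transcriptome. The labels do not say how LPL was introduced, whether the overexpressing cells are a clone, or whether replicates are separate cultures. The Control cells are wild type and no vector-only library was analysed here. Effects of LPL therefore cannot be told apart from those of the way it was introduced or of a clone. The p-values weigh the group difference against the spread between these libraries, which may be technical.

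Notch signalling passes between touching cells. A Delta-like or Jagged ligand on one cell binds a Notch receptor on its neighbour, proteases then cut the receptor, and its freed intracellular part joins the DNA-binding protein RBPJ to switch on target genes such as those of the Hes and Hey repressors. In blood vessels the pathway is known for setting arterial identity and for restraining tip cells during sprouting, where Dll4 activates Notch1 and Jag1 can act against it.

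Libraries held between 24328418 and 29210847 sense reads. Lpl itself had 10867, 12691, 10901 and 12753 reads in LPL overexpression replicates 1 to 4, against 1, 1 and 6 reads in Control replicates 1 to 3 (exact two-sided permutation test over 35 splits, p = 0.0286, the smallest this design can give). Endothelial markers were abundant in both groups, with 12 markers summing to 5969 to 6134 CPM (counts per 1000000 reads, scaled by TMM) in LPL overexpression libraries and 6890 to 6976 CPM in Control libraries. Of the 11 tested, 7 fell and Esam and Egfl7, named after their values were seen, rose. Cldn5 had 0 reads in the LPL overexpression libraries and 1 read in the Control libraries. All 8 pigment cell markers rose. Their sum was at 1335 to 1399 CPM with LPL overexpression and at 3.15 to 3.72 CPM in Control, where Tyrp1, Dct, Mlana, Tyr and Sox10 were at 0 reads. These pigment cell genes accompany every difference given here, and their part in the differences was not tested. In bulk RNA, fewer cells of a type and less RNA per cell cannot be told apart. LPL overexpression replicate 4 stood somewhat apart, with a chi-square per degree of freedom between 2.54 and 4.10 against the other libraries of its group, where all other pairs within a group lay between 1.65 and 2.38.

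The largest differences were in the Delta-like ligands, and the ligands did not all move in the same direction. Dll1 and Dll4, both Delta-like ligands, fell by 0.92 and by 0.83 on the log2 scale, while Jag1 rose by 0.30. Notch4, an endothelial receptor, and Hes1 fell by 0.32 and by 0.45, less than the Delta-like pair, and Notch3, at a low level, rose. Of the 9 genes tested, 2 were higher and 4 lower with LPL overexpression at an adjusted p under 0.05, in edgeR's quasi-likelihood test with Benjamini-Hochberg adjustment across the 13639 tested genes. Over all those genes 43.2% were called, 21.9% higher and 21.3% lower, and beside that background the counts alone do not set these 9 genes apart. The median log2 fold change was -0.18 over the 9 genes and 0.00 over all genes tested. The median size of change was 0.32 over the 9 genes and 0.12 over all genes. These genes were chosen with earlier results of these data known, so the medians only describe them. The groups did not overlap in 2 genes that were higher and 4 that were lower, where over all genes tested 44.6% did not, 22.8% higher and 21.8% lower.

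**Figure D1:**
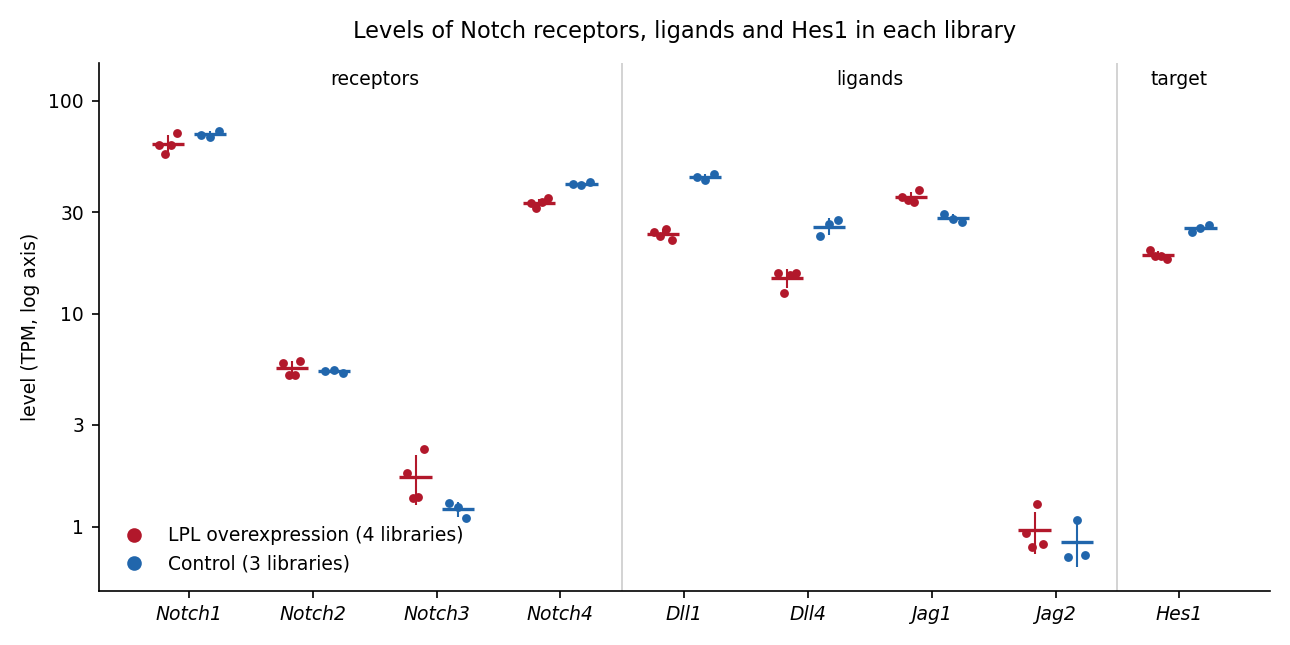
Level of each gene in TPM (transcripts per 1000000, log axis) in 4 LPL overexpression libraries (red) and 3 Control libraries (blue); points are libraries, horizontal lines means and vertical lines SD. Dll1, Dll4, Notch4 and Hes1 lie lower in every LPL overexpression library, Jag1 and Notch3 lie higher, and Hey1, with at most 1 read per library, is not drawn.

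Dll1 showed the largest difference among the ligands. The gene (ENSMUSG00000014773.13) lies on the minus strand of chromosome 17, from 15367354 to 15376872 (mm10). Its level was 24.2, 23.1, 25.0 and 22.2 TPM in LPL overexpression replicates 1 to 4, against 43.9, 42.5 and 45.3 TPM in Control replicates 1 to 3. The groups were far apart relative to their spread, with means of 23.6 ± 1.249 TPM (SD, n = 4) and 43.9 ± 1.39 TPM (SD, n = 3). The log2 fold change was -0.92 (SE 0.04, adjusted p = 4.13e-25 in edgeR), and 0.689% of genes tested had a lower one.

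Dll4 is the Delta-like ligand of arterial and tip endothelial cells. It lies on the plus strand of chromosome 2, from 119325784 to 119335962 (ENSMUSG00000027314.6). LPL overexpression libraries held 15.6, 12.5, 15.2 and 15.6 TPM, against 23.0, 26.4 and 27.5 TPM in Control libraries. Every LPL overexpression library was below every Control library, and LPL overexpression replicate 2 was the lowest. The log2 fold change was -0.83 (SE 0.08, adjusted p = 1.80e-07 in edgeR), and 0.894% of genes tested had a lower one. Dll1 stood at 1.62 ± 0.180 times the level of Dll4 in LPL overexpression libraries (SD, n = 4) and at 1.72 ± 0.162 times in Control libraries (SD, n = 3), with overlapping values.

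Jag1, the main Jagged ligand of these cells, went the other way. The gene (ENSMUSG00000027276.7) lies on the minus strand of chromosome 2, from 137081456 to 137116644. It was at 35.4, 34.1, 33.6 and 37.9 TPM in LPL overexpression libraries, against 29.4, 27.7 and 27.0 TPM in Control libraries. The groups did not overlap, and the log2 fold change was 0.30 (SE 0.04, adjusted p = 8.35e-09 in edgeR). Jag2 (ENSMUSG00000002799.5, chromosome 12, 112908590 to 112929495, minus strand) was near the limit of the data, with 28, 29, 39 and 28 reads in LPL overexpression libraries and 24, 37 and 24 in Control libraries. Its log2 fold change of 0.14 had a 95% interval from -0.30 to 0.57 and did not pass (adjusted p = 0.648 in edgeR). Changes within that interval cannot be told apart with these libraries.

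The promoter sequences of the ligands that moved are shown because their transcript levels changed in opposite directions. They come from RefSeq on GRCm38.p6, the assembly of mm10, where entries were found for 8 of the 10 genes, all but Hey1 and Hes1. Each stretch ends upstream of the RefSeq transcription start and outside the gene as annotated in the tables, and is written 5′ to 3′ on the gene's strand. Capitals mark the N-box, a binding motif of Hes repressors. The stretches are chr2:119325534-119325783 (plus strand) for Dll4, chr17:15376933-15377182 (minus strand) for Dll1 and chr2:137116645-137116770 (minus strand) for Jag1.
Dll4: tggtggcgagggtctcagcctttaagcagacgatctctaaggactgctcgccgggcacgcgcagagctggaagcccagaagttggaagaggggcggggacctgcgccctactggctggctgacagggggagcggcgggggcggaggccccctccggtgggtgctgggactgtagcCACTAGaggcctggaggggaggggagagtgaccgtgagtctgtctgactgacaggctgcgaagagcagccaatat
Dll1: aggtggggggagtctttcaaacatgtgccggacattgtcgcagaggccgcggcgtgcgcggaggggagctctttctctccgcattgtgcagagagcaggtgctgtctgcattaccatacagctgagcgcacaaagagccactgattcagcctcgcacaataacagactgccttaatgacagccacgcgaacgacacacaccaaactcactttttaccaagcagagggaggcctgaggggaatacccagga
Jag1: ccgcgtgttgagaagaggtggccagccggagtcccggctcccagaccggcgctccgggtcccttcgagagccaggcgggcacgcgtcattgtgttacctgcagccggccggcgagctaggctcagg
Motifs were searched on both strands in windows from 250 bases before to 50 bases after the start, and no run of letters can match more than 1 of them. The RBPJ core TGGGAA was in 0 of 9 windows of the 8 genes, where 25.6% of all 32851 windows hold it. The E-box CACGTG was also in 0 of 9, against 7.15% of all windows, and the N-box CACNAG was in 5 of 9, against 42.5%. The Dll4 match starts 75 bases before the transcription start, and the one of Dll1, not shown, lies 14 bases into the transcript. A match is a description of letters, not a binding site.

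The make-up of the ligand pool differed between the groups. Summed over the 4 ligands, the level was 76.2, 70.4, 75.1 and 76.5 TPM in LPL overexpression libraries, against 97.1, 97.7 and 100.5 TPM in Control libraries. The Delta-like pair gave 38.3 ± 2.17 TPM (SD, n = 4) with LPL overexpression and 69.6 ± 2.96 TPM (SD, n = 3) in Control. The Jagged pair gave 36.2 ± 1.83 TPM and 28.9 ± 1.16 TPM. Jag1 made up between 44.7% and 49.6% of the ligand sum in LPL overexpression libraries and between 26.9% and 30.3% in Control libraries. Dll1 made up between 29.0% and 33.3%, against between 43.5% and 45.3%. The ratio of Dll4 to Jag1, which needs no scaling between libraries, was 0.440, 0.365, 0.454 and 0.411 in LPL overexpression libraries and 0.785, 0.953 and 1.02 in Control libraries. These sums and ratios are descriptions without a test.

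**Figure D2:**
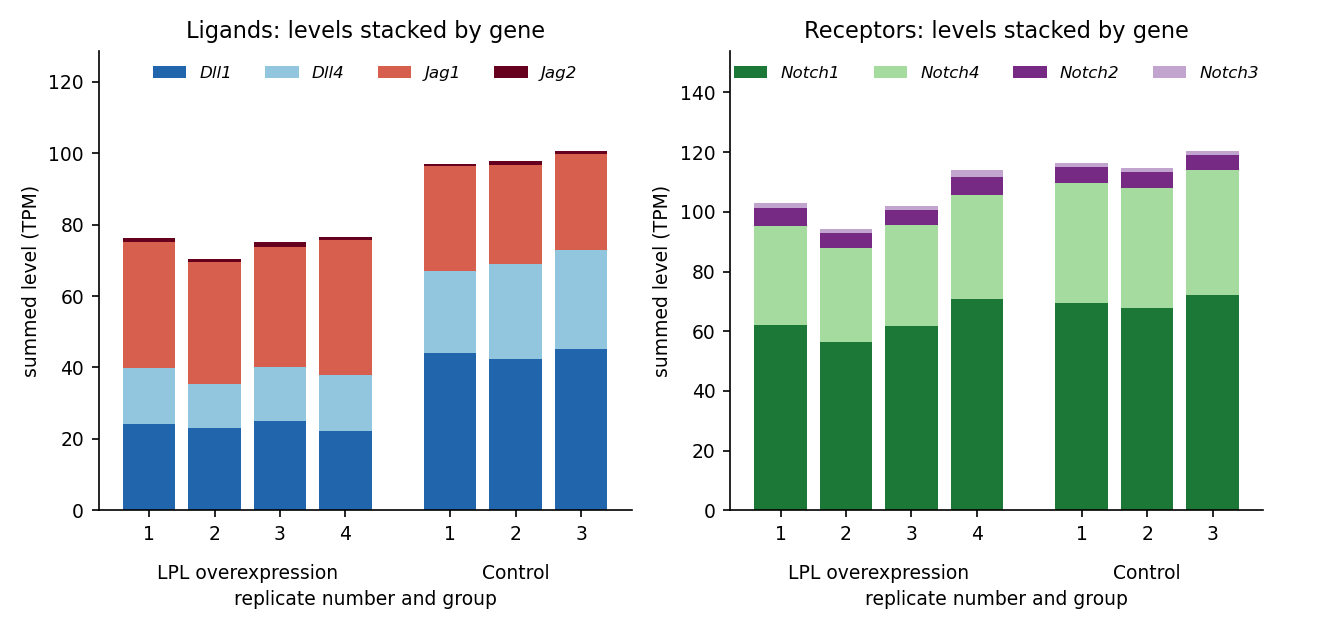
Levels in TPM stacked for the 4 ligands (left) and the 4 receptors (right), 1 bar per library, with LPL overexpression replicates left of Control replicates. The ligand bars reach 70.4 to 76.5 TPM in LPL overexpression libraries and 97.1 to 100.5 TPM in Control libraries, with Jag1 the largest part with LPL overexpression and Dll1 the largest in Control.

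Among the receptors Notch1 was the most abundant, and its difference depended on 1 library. Notch1, the principal receptor of Dll4 in endothelium, lies on the minus strand of chromosome 2, from 26457903 to 26516663 (ENSMUSG00000026923.15). LPL overexpression replicates 1 to 4 were at 62.2, 56.3, 61.9 and 70.7 TPM, against 69.3, 67.8 and 72.2 TPM in Control libraries. The first 3 LPL overexpression libraries were below every Control library and replicate 4 was within the Control range. With all libraries the log2 fold change was -0.18 (SE 0.08, 95% interval -0.38 to 0.02) and did not pass (adjusted p = 0.139 in edgeR). Without LPL overexpression replicate 4 it was -0.24 and passed (adjusted p = 8.21e-12 in edgeR), in a fit where 22.3% of all genes tested were called higher and 20.2% lower.

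Notch4, a receptor largely restricted to endothelium, fell in every library. It lies on the plus strand of chromosome 17, from 34564268 to 34588503 (ENSMUSG00000015468.14). Its level was 33.0, 31.5, 33.6 and 34.9 TPM in LPL overexpression libraries, against 40.5, 40.1 and 41.7 TPM in Control libraries. The log2 fold change was -0.32 (SE 0.03, adjusted p = 5.68e-12 in edgeR). Set against single endothelial genes within each library, Notch4 was lower relative to Cdh5, the VE-cadherin gene, at 0.0476 ± 0.000945 of its level with LPL overexpression (SD, n = 4) and 0.0527 ± 0.000598 in Control (SD, n = 3). Relative to Pecam1, an endothelial adhesion molecule gene that itself fell by 0.40 on the log2 scale, the values overlapped, at 0.0290 ± 0.00136 and 0.0276 ± 0.000669.

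Notch2 and Notch3 were minor receptors here. Notch2 (ENSMUSG00000027878.11, chromosome 3, 98013527 to 98150361, plus strand) was at 5.89, 5.17, 5.17 and 5.99 TPM in LPL overexpression libraries and at 5.39, 5.44 and 5.28 TPM in Control libraries. Its log2 fold change of 0.02 had a 95% interval from -0.10 to 0.14 and did not pass (adjusted p = 0.813 in edgeR). With libraries scaled to 12 endothelial markers, which moved the median of all genes to 0.20, it was 0.22 and passed (adjusted p = 7.84e-04 in edgeR). Notch3, the receptor best known from vascular smooth muscle cells and pericytes, lies on the minus strand of chromosome 17, from 32120820 to 32166880 (ENSMUSG00000038146.7). It had 106, 98, 84 and 156 reads in LPL overexpression libraries, against 85, 84 and 71 in Control libraries. In TPM the groups did not overlap, at 1.78, 1.37, 1.38 and 2.32 against 1.29, 1.23 and 1.0996, with replicate 4 the highest. The log2 fold change was 0.48 (SE 0.16, adjusted p = 0.0157 in edgeR). The call ended without LPL overexpression replicate 1 (adjusted p = 0.0560) or 4 (adjusted p = 0.0668, with a log2 fold change of 0.29), and without Control replicate 2 (0.0538) or 3 (0.0809). It was also lost on log2(TPM + 0.5), with adjusted p = 0.1599 in limma. Mural cell markers were scarce in both groups, with 10 of them summing to 3.00 to 3.62 CPM in LPL overexpression libraries and 1.85 to 2.07 CPM in Control libraries. Of the 2 tested, Cspg4 rose, with 84 reads over the LPL overexpression libraries and 1 over the Control libraries. Pdgfrb, at 1.79 to 2.10 CPM with LPL overexpression and 1.52 to 1.84 CPM in Control, was not called (adjusted p = 0.254 in edgeR). Both were named after their values were seen. Cspg4 rose in the libraries that held the pigment cell markers, whose part was not tested. The other 8 mural markers had too few reads to be tested. Over the LPL overexpression and Control libraries Acta2 had 17 and 2 reads, Cnn1 12 and 1, Tagln 12 and 4, and Des 10 and 2. Myh11 had 10 and 8 and Rgs5 1 and 0, and Kcnj8 and Abcc9 had 0 reads in all 7 libraries.

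**Figure D3:**
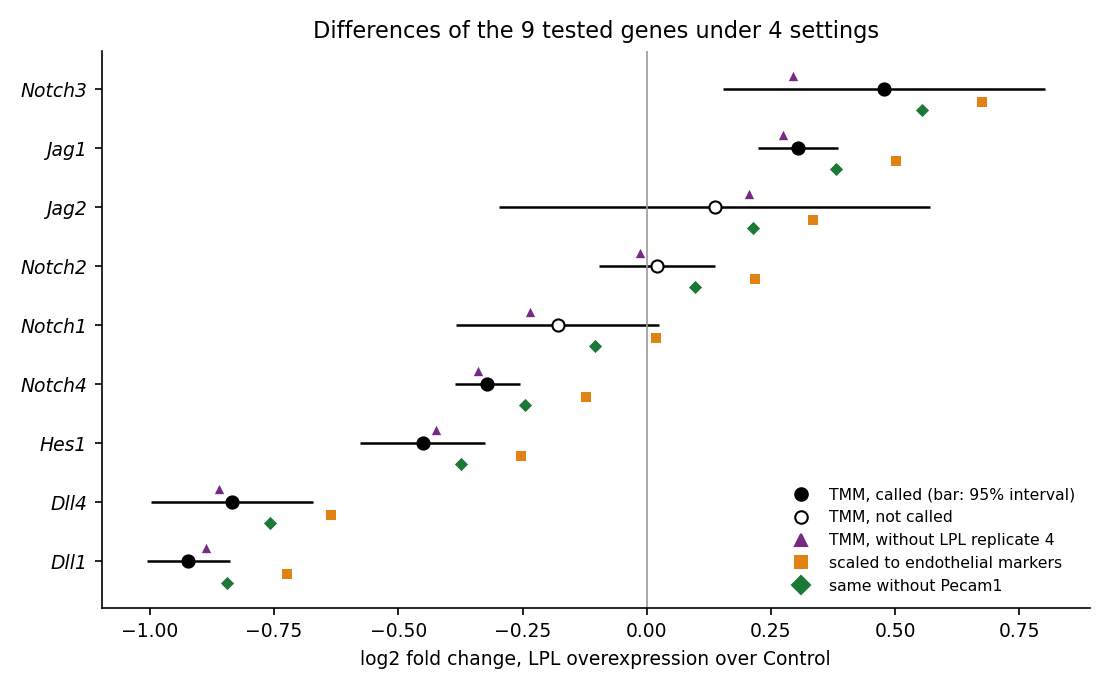
Log2 fold change of LPL overexpression over Control for the 9 tested genes (circles, filled where the adjusted p passed, with 95% intervals), beside the values without LPL overexpression replicate 4 (triangles) and with libraries scaled to 12 endothelial markers (squares) or to the same markers without Pecam1 (diamonds). Dll1, Dll4, Hes1 and Notch4 stay below 0 and Jag1 and Notch3 above 0 under all 4 settings, while Notch1 and Notch2 cross it.

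Of the target genes, Hes1 fell and Hey1 was barely detected. Hes1 encodes a helix-loop-helix repressor that many signals besides Notch can induce, and lies on the plus strand of chromosome 16, from 30064384 to 30067796 (ENSMUSG00000022528.7). It was at 19.9, 18.6, 18.7 and 18.002 TPM in LPL overexpression libraries, against 24.3, 25.3 and 25.99 TPM in Control libraries. The groups did not overlap, and the log2 fold change was -0.45 (SE 0.06, adjusted p = 3.19e-08 in edgeR). Hey1, the gene of a repressor of arterial endothelium (ENSMUSG00000040289.8, chromosome 3, 8663359 to 8667256, minus strand), had 0, 0, 0 and 1 reads in LPL overexpression libraries and 1, 0 and 1 in Control libraries. That is 0.00943 per 1000000 reads with LPL overexpression (exact Poisson 95% interval 0.000239 to 0.0526) and 0.0244 per 1000000 reads in Control (0.00295 to 0.0881). Both lie under a floor of 3 reads over the group, so no fold is given and a difference was not detectable at this depth. Such intervals cover counting error only, since PCR copies of a molecule cannot be told from separate molecules.

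In order of level the groups differed mainly in where Dll1, Jag1 and Dll4 stood. In LPL overexpression libraries Notch1 (62.8 ± 5.95 TPM, SD, n = 4) came before Jag1 (35.3 ± 1.94), Notch4 (33.2 ± 1.42), Dll1 (23.6 ± 1.249), Hes1 (18.8 ± 0.797) and Dll4 (14.7 ± 1.52). Only Jag1 and Notch4 overlapped among these neighbours. In Control libraries Notch1 (69.8 ± 2.22 TPM, SD, n = 3) came before Dll1 (43.9 ± 1.39), Notch4 (40.8 ± 0.842), Jag1 (28.0 ± 1.202), Dll4 (25.7 ± 2.33) and Hes1 (25.2 ± 0.864). There Jag1 overlapped with Dll4 and Dll4 with Hes1. Notch2, Notch3, Jag2 and Hey1 followed in that order in both groups.

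The 10 genes lie on 5 chromosomes, and most of their neighbours did not pass the test. Dll4, Jag1 and Notch1 are on chromosome 2 and Dll1, Notch3 and Notch4 on chromosome 17, each with a median log2 fold change of -0.01 over its tested genes. Of the 20 nearest tested neighbours, 1 on each side of each gene, Egfl7, Tap2 and Slx4ip rose and Phgdh and Atp13a3 fell, names taken after their values were seen. Over all genes tested 43.2% were called. Only 3 of the 20 lie within 10 kb, and the farthest, Btbd3, is 1139920 bases from Jag1, so local effects were not tested. The neighbours of Dll4 were Vps18 at 0.06 and Chac1 at 0.02, and those of Dll1 were Ermard at 0.07 and Fam120b at -0.01, and none of these 4 passed. Reads in the antisense orientation were few, at 1.03% of oriented reads for Dll4 in LPL overexpression libraries and 0.812% in Control libraries, and at most 0.225% for every other member in either group. Genes annotated on the opposite strand overlap Dll1, Dll4, Notch1, Notch3 and Notch4. When both orientations are counted together the reads of Dll1 dropped by 18.4% in LPL overexpression libraries and dropped by 16.8% in Control libraries, and its log2 fold change was then -0.95.

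Most differences in the rest of the pathway were small. Of 59 further pathway genes 43 were tested, 10 were higher and 20 lower, and the median log2 fold change over the 43 was -0.05. Over all genes tested 21.9% were higher and 21.3% lower, shares that stand beside each count by role below. The balance of the 43 depends on scaling. It was 27 higher and 1 lower when libraries were scaled to the endothelial markers, a scaling that moved the median of all genes to 0.20. It called 65.2% of all genes higher and 4.81% lower, so that 93.1% of its calls were higher, where TMM gave 50.8%. Pecam1 supplied between 34.99% and 40.7% of that marker sum, and without it the balance was 14 higher and 10 lower, where 36.5% of all genes were called higher and 11.2% lower (76.5% of calls higher). Under the scaling with Pecam1, Mib1, Lfng, Dtx2, Flt1 and Ephb4 stayed below 0 but did not pass. On log2(TPM + 0.5) in limma 8 were higher and 10 lower, and 61.3% of all called genes were higher.

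Of the genes for ubiquitination of the ligands, which starts their uptake into the sending cell, 3 were tested, and 2 fell and 1 rose, where 21.3% of all genes tested were lower and 21.9% higher. Neurl1b, an E3 ligase gene, was at 10.6, 9.19, 9.81 and 10.1 TPM in LPL overexpression libraries, against 15.4, 15.8 and 15.0 TPM in Control libraries. The groups did not overlap, and its log2 fold change was -0.66 (SE 0.05, adjusted p = 2.11e-16 in edgeR). Mib1, the main ligase of Notch ligands, fell by 0.23 on the log2 scale, but was at -0.03 and did not pass under endothelial scaling (adjusted p = 0.330 in edgeR). Mib2 rose by 0.20 (adjusted p = 0.0280 in edgeR), with groups that overlapped. That call was lost in DESeq2, in limma, with the replicate number as a block (adjusted p = 0.0590 in edgeR) and without LPL overexpression replicate 1, 3 or 4 or Control replicate 1, where the adjusted p reached 0.164.

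Among 5 glycosylation genes, 2 fell and 1 rose. Lfng and Mfng, fringe enzymes that alter which ligands a receptor answers to, fell by 0.39 (SE 0.09) and by 0.19 (SE 0.03) on the log2 scale, though Mfng was at 0.01 under endothelial scaling. Mfng was the more abundant, at 143 ± 4.84 TPM with LPL overexpression (SD, n = 4) and 160 ± 1.39 TPM in Control (SD, n = 3). Pofut1, which adds the fucose that fringe extends, rose by 0.08, a call that ended without LPL overexpression replicate 1 (adjusted p = 0.0729 in edgeR).

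The receptor proteases held the largest rises. Of 10 tested, 3 rose and 1 fell. Psen2, a catalytic subunit of gamma-secretase, was at 18.2, 18.3, 17.8 and 19.4 TPM in LPL overexpression libraries, against 5.004, 4.87 and 5.55 TPM in Control libraries. Its log2 fold change was 1.82 (SE 0.07, adjusted p = 2.93e-29 in edgeR). Aph1c, at 4.004 to 4.79 TPM with LPL overexpression and 0.385 to 0.431 TPM in Control, rose by 3.37. Aph1b rose by 0.61. Aph1c and Aph1b encode near-identical copies of a gamma-secretase scaffold subunit, so the division of reads between them is uncertain. Aph1a, of the same family, was more abundant, at 24.2 to 27.2 TPM with LPL overexpression and 24.6 to 25.7 TPM in Control. It was not called (adjusted p = 0.986 in edgeR), and neither were Ncstn (-0.03) and Psenen (-0.05). Aph1a, Ncstn and Psenen were named after their values were seen. Adam10, the protease of the first regulated cut, fell by 0.08 on the log2 scale but was at 0.12 and called higher under endothelial scaling (adjusted p = 9.12e-05 in edgeR). It did not pass with upper-quartile factors (adjusted p = 0.0556 in edgeR), with endothelial scaling without Pecam1 (0.908) or in limma (0.0857). The libraries with these rises were those that held the pigment cell markers, at 1335 to 1399 CPM in sum, whose part was not tested.

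Nuclear factors moved in both directions, with 4 of 12 higher and 5 lower. Rbpj, the DNA-binding partner of the receptor, was at 14.9, 14.9, 14.3 and 14.7 TPM in LPL overexpression libraries, against 17.0, 16.2 and 16.1 TPM in Control libraries. Its log2 fold change was -0.19 (SE 0.04, adjusted p = 2.25e-05 in edgeR), and 0.01 under endothelial scaling. Kat2b, an acetyltransferase gene, rose by 0.22 and Snw1, a co-regulator gene, by 0.14. Named after their values were seen, Maml2 (0.19) and Maml3 (1.35, SE 0.35), of the Mastermind co-activators, were the others that were higher. Maml3 had few reads, with 15, 19, 19 and 12 in LPL overexpression libraries and 7, 8 and 4 in Control libraries. Maml1 (-0.09), of the same family, Tle1 (-0.16) and Ep300 (-0.15) were among the others that were lower.

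Of 7 tested genes listed here as negative regulators, Deltex genes among them, 0 rose and 5 fell. Over all genes tested 21.9% were higher and 21.3% lower. None of the 5 was called lower under endothelial scaling, where Neurl1b was the only pathway gene that was. Dtx2, of the Deltex family, fell by 0.28 and Numb, an endocytic adaptor, by 0.18 on the log2 scale, though Numb was at 0.02 under endothelial scaling. Numbl (-0.14) and Fbxw7 (-0.13), named after their values were seen, were the others that were lower. Nrarp, a feedback inhibitor that Notch itself induces, was at 225 ± 6.02 TPM with LPL overexpression (SD, n = 4) and 238 ± 5.92 TPM in Control (SD, n = 3). Its log2 fold change of -0.10 (adjusted p = 0.00103 in edgeR) was 0.00 when both orientations were counted together, and it did not pass in limma. Under endothelial scaling it was 0.09 and was called higher (adjusted p = 0.00225 in edgeR), and without Pecam1 it was -0.03 and did not pass.

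Among other target and vessel identity genes most had too few reads to be tested. Of 15 listed, 6 were tested, of which 5 fell and only Hes6 (0.38), of the Hes family, rose. Nr2f2 (-0.09), a venous identity gene, was among the 5, and both were named after their values were seen. Heyl and Gja4 had 0 reads in all libraries, which allows up to 0.0283 per 1000000 reads in LPL overexpression and 0.0366 in Control, from 3 reads over the group. Gja5, an arterial connexin gene, had 1 read over the LPL overexpression libraries and 0 over the Control libraries, and Hey2, an arterial repressor gene, had 9 and 8. Efnb2, the arterial ephrin gene, was at 15.3, 13.6, 14.3 and 15.9 TPM in LPL overexpression libraries and at 15.8, 15.7 and 15.97 TPM in Control libraries. Its log2 fold change was -0.13 (adjusted p = 0.0169 in edgeR), a call that ended without LPL overexpression replicate 2 (adjusted p = 0.132) or 3 or Control replicate 3, in DESeq2, in limma and with endothelial scaling without Pecam1, and the value was 0.07 under endothelial scaling. Flt1 and Flt4, receptors of VEGF family ligands, fell by 0.23 and by 0.19, and Ephb4, the venous receptor of ephrin B2, by 0.21 on the log2 scale, with Flt4 at 0.00 under endothelial scaling.

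**Figure D4:**
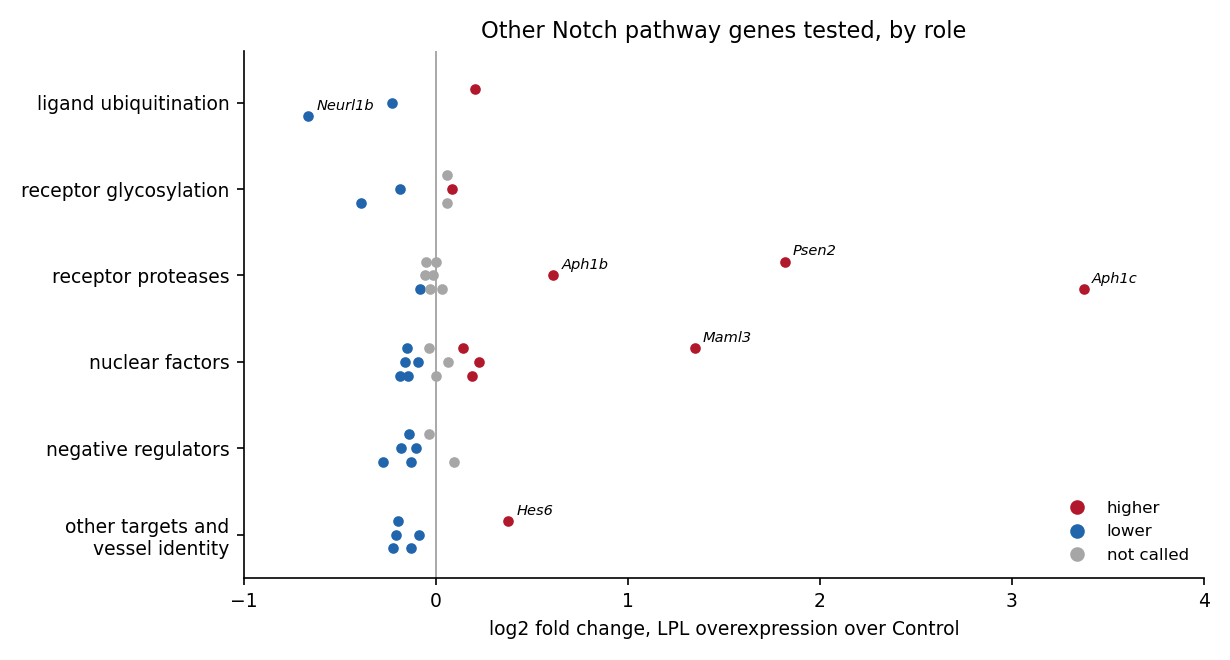
Log2 fold change of LPL overexpression over Control for the 43 tested pathway genes beyond the receptors, ligands, Hey1 and Hes1, grouped by role and coloured by call (red higher, blue lower, grey not called). Psen2 at 1.82 and Aph1c at 3.37 stand far to the right among the receptor proteases, and Neurl1b at -0.66 is farthest to the left.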

How the data were processed

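RNA of 7 MS-1 libraries was prepared by the TruSeq stranded protocol for total RNA, per the labels' protocols, and aligned with STAR to mm10, per the submitters' processing notes. Their versions were not given in the sources used here. The deposited counts are whole, unnormalised reads per gene, given by orientation per the file headers. Reverse-orientation reads, between 97.0% and 97.1% of oriented reads, were used. The deposited TPM values, scaled by the authors to 1000000 over all genes, served as levels per length. All 10 genes are protein coding in GENCODE mouse release 21, 8 of them with the same coordinates.

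Genes were tested with edgeR 4.0.16 (R 4.3.3) by the quasi-likelihood F test, with TMM, filterByExpr by group, robust dispersion and the group as only term, with Benjamini-Hochberg adjustment over the whole table at 0.05. Standard errors were derived from F. DESeq2 1.42.0 and limma 3.58.1 (trend, genes with a mean TPM of at least 0.1) were alternatives. The edgeR step was tested on simulated counts of 13447 genes. Of 50, 50, 49 and 49 genes changed by 1.1-, 1.25-, 1.5- and 2-fold it recovered 38%, 76%, 81.6% and 98.0%, with 11 false calls. That is a far smaller share of changed genes than the 43.2% called in the real data, so these rates may not hold there. Members, gene lists and tests were chosen with earlier results of these data known. Named pathway genes are up to 3 called genes per list by adjusted p, and 11 others fixed whatever their result, of which 1 is not reported here. Figures were drawn with matplotlib 3.10.9. No pair of libraries agreed within sampling noise.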

Additional observations from a re-analysis of the deposited data

Results flagged for a closer look

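Dll4 in LPL overexpression replicate 2 lay at 12.45 TPM, below the other 3 LPL overexpression libraries by 0.888 of the range of the group. Without that library the log2 fold change of Dll4 was -0.75 (adjusted p = 5.74e-15 in edgeR). Mib2 was lowest in the same library, at 6.215 TPM, a gap of 0.890 of the range of the group. Without it the log2 fold change of Mib2 was 0.28 (adjusted p = 0.00220 in edgeR). These are 2 genes of 36 examined, and chance alone sets apart a sample in about 1 in 20 groups of this size. Antisense reads at Lpl, which the comparisons did not use, summed to 100 over the LPL overexpression libraries and 0 over the Control libraries, and made up 0.211% of the oriented reads of the gene with LPL overexpression.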

How the results depend on the processing

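Dll1, Dll4, Jag1, Hes1 and Notch4 kept their direction and passed under all 17 alternative settings, with log2 fold changes from -0.95 to -0.72, -0.91 to -0.64, 0.27 to 0.50, -0.48 to -0.25 and -0.34 to -0.12. Notch3 stayed above 0 in all of them. Leaving out each library in turn gave 5 to 6 members called, 25 to 30 pathway genes, 5155 to 5716 of all genes, and for Lpl a log2 fold change from 11.65 to 13.39. With libraries scaled to the endothelial markers 9544 of all genes were called, where TMM gave 5889. There 7 members were called (3 higher, 4 lower), Notch2 among them at 0.22 (adjusted p = 7.84e-04 in edgeR). In that setting Notch1 stood at 0.0185, Adam10 at 0.12, Efnb2 at 0.0703, Flt4 at 0.00301, Mfng at 0.0104, Nrarp at 0.0941, Numb at 0.0181 and Rbpj at 0.0116 on the log2 scale, each with its sign turned, while the median of all genes moved by 0.20. That scaling without Pecam1 was chosen after seeing the data. Limma on log2(TPM + 0.5) and on log2(TPM + 1) called 18 pathway genes in each, where edgeR called 30, and the cause was not tested. Nrarp was at 0.00425 with both orientations counted. Notch2 was at -0.00657 without LPL overexpression replicate 1 and at -0.0132 without replicate 4, and Jag2 at -0.0204 without LPL overexpression replicate 3. Leaving out 1 library at a time, Notch2 ranged from -0.0132 to 0.0585 and Jag2 from -0.0204 to 0.36.

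Libraries of the same replicate number in the 2 groups did not deviate together, with correlations of -0.0189, -0.0391 and 0.0193 for numbers 1 to 3, and the numbers are not known to pair the samples. With the replicate block, which leaves LPL overexpression replicate 4 in a block of its own, 6 members (1 higher, 5 lower), 29 pathway genes and 5793 of all genes were called. Notch1 passed there (-0.24, adjusted p = 1.15e-13 in edgeR), Notch3 and Mib2 did not (adjusted p = 0.0665 and 0.0590) and Notch2 was at -0.0185. For Jag2 and Hey1, with few reads, only the intervals given above can be stated.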

Other observations

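Low pathway genes, picked after their values were seen, included Neurl1a, a ligase gene of the Neuralized family, and Dlk2, the gene of an atypical Delta-like protein. Neurl1a had 23 reads over the LPL overexpression libraries and 1 over the Control libraries, a depth-scaled ratio of 17.8 (exact 95% counting interval 2.89 to 733). Dlk2 had 13 and 0 reads, a depth-scaled ratio of 3.35 against a floor of 3 reads over the Control group. That ratio takes the 13 reads as exact and leaves out their counting error. Both were below the filter on low counts used for the other genes, and the same 4 libraries carried the pigment cell markers.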
